A study of Rattus norvegicus with 18 samples.

Results

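Amino acids enter and leave cells through several families of plasma membrane carriers. The array measured 52 genes with symbols of such families, whatever each of them carries, in the livers of 18 rat pups. A gene was taken when its symbol in the array annotation was Slc3a1 or Slc3a2 or began with Slc1a, Slc6a, Slc7a, Slc36a, Slc38a or Slc43a, with the taurine transporter Slc6a6 left out, and the brightest of its probes over the 18 arrays stood for the gene. These 52 genes carried 54 of the 22523 probes and were part of the 13337 genes that could be named. The mean log2 expression over all arrays was 8.3 or more for 11 of them and lower for 41. Of the 11, 10 encode transporters, with the heavy chain Slc3a2 counted among them. Slc7a6os was taken by its symbol alone, since it is read from the strand opposite Slc7a6 and encodes no transporter. Next to the limit, Slc7a5 lay just inside with a mean of 8.36 and the glutamate transporter Slc1a2 just outside with 8.27.

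The pups were born to Wistar dams, 3 per group, that had been injected through the tail every 5 days from GD 15 to PND 20, 6 injections in all. Dams of G1 received the vehicle (ethanol, Cremophor EL and water), dams of G2 received 0.002 mg/kg BDE-47 in the same vehicle and dams of G3 received 0.2 mg/kg. BDE-47 is a tetrabrominated diphenyl ether of the flame retardant mixtures. Pups were sacrificed on PND 27, 7 days after the last injection, 1 male and 1 female per litter. Each group therefore held 6 pups, replicates 1 to 3 male and 4 to 6 female. The labels do not tie pups to litters, and the p-values would be too small where pups of a litter are alike.

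Several of these carriers work as pairs. Slc3a2, also known as 4F2hc or CD98, is the heavy chain that brings a light chain of the Slc7 family to the plasma membrane and holds it there through a disulfide bond, while the light chain moves the amino acid. Slc7a5 (LAT1) and Slc7a8 (LAT2) exchange large neutral amino acids, Slc7a7 and Slc7a6 exchange basic for neutral amino acids, and Slc7a11 brings in cystine for glutathione. Hepatocytes are also known for the sodium-coupled Slc38 carriers, among which Slc38a2 and Slc38a4 move small neutral amino acids such as alanine and Slc38a3 moves glutamine. In mammalian cells Slc3a2 and several light chains are induced through the transcription factor Atf4 when amino acids are short.

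The deposited log2 values ran from 7.61 to 15.73 with the median probe at 7.84, so that a probe below 8.3 lay near the lower end of the scale, and 27.1% of all probes reached 8.3. Array medians were 7.84 to 7.85, pairs of arrays correlated across probes at 0.974 to 0.995, and no columns were identical. Precision is limited by the number of arrays. All 7 hepatocyte markers measured were bright in every group, with list means of 14.94 to 15.15 in G1, 15.05 to 15.24 in G2 and 14.90 to 15.14 in G3. G3 replicate 2 stood apart by skeletal muscle transcripts, its Acta1 value being 13.70 against at most 8.91 in the other pups. In whole liver, fewer cells of a type and less RNA per cell cannot be told apart.

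The start regions of the heavy chain Slc3a2 and of its light chain Slc7a5 (LAT1) are shown, because these partners had log2 fold changes of opposite sign at the higher dose. The windows hold 250 bases before and 50 bases after an annotated transcript start in RefSeq GRCr8, both genes being read from the minus strand. Slc3a2 has 2 annotated starts, with windows at chr1:215048015-215048314 and chr1:215039621-215039920, and the Slc7a5 window is chr19:66872363-66872662. Capitals mark a match to one of 3 searched patterns.
Slc3a2, start 1: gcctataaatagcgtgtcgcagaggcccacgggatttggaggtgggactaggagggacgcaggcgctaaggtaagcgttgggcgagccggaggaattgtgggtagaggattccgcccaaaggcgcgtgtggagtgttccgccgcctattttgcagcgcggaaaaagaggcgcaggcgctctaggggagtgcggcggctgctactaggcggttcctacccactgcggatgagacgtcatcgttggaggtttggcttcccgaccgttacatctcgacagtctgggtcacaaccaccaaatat
Slc3a2, start 2: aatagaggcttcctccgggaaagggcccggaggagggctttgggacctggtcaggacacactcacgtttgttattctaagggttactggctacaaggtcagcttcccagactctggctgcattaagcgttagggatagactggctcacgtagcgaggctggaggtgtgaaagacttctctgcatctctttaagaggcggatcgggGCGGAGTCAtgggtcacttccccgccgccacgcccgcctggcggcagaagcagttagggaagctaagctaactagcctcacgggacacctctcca
Slc7a5: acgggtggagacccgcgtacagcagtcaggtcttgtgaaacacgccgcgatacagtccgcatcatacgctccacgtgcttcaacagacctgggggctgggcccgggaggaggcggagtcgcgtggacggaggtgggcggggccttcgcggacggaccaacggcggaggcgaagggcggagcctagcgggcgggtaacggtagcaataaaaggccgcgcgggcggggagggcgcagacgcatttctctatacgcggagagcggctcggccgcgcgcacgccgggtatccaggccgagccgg

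The patterns were TGATGNAA, the core of the C/EBP-ATF response element, TGACGTCA, the cyclic AMP response element, and TGACNNNGC, the core of the antioxidant response element, each searched on both strands. TGACGTCA and TGACNNNGC begin with the same letters TGAC, but the same stretch of bases cannot match both. The only match in the printed windows was the antioxidant pattern at position −45 of the downstream Slc3a2 start, GCGGAGTCA, on the strand opposite the gene. That pattern occurred in 12.1% of all 33469 promoter windows, the C/EBP-ATF pattern in 3.98% and the cyclic AMP pattern in 1.83%. Among the 43 windows found for 39 of the 52 genes, they occurred in 8, 3 and 1. Among the 9 windows of 8 of the 11 bright genes, the antioxidant pattern occurred in 3 (Slc3a2, Slc38a2 at −50 and Slc7a7 at −192), the cyclic AMP pattern in 1 (Slc38a6 at −136) and the C/EBP-ATF pattern in 0. A match describes letters only and is not a bound site.

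Expression of the heavy chain Slc3a2 (probe ILMN_1372377) was higher in every exposed pup of G2 than in any control pup. The 6 pups of G1 read 10.41, 10.49, 11.05, 10.97, 10.77 and 10.89, in replicate order on the log2 scale. Those of G2 read 11.84, 11.36, 11.72, 11.84, 11.51 and 11.46, and those of G3 read 11.57, 11.47, 11.50, 10.99, 11.02 and 11.20. G2 thus did not overlap with G1, whereas in G3 the 3 males and 1 female lay above all controls and the other females, replicates 4 and 5, lay within the control range. Groups failed to overlap between G2 and G1 for 0.448% of all probes and for 0.738% of the probes of mean 8.3 or more.

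Against G1, with a mean of 10.76 ± 0.26 (SD, n = 6), Slc3a2 was 1.81-fold higher in G2, a log2 fold change of 0.86 with a standard error (SE) of 0.13 and a 95% interval of 0.58 to 1.14. Its unadjusted p of 2.66e-05 was sixth among all probes, and it did not pass over 22523 probes (limma, adjusted p = 0.0975). The exact two-sided permutation test of 6 pups against 6 gave p = 0.00216, the smallest possible with these numbers of pups. It treats pups as independent, although the dose was given to the dams and littermates share a dam. In G3 the gene was 1.44-fold higher (log2 fold change 0.53, SE 0.14, 95% interval 0.22 to 0.83, limma, adjusted p = 0.0960, exact permutation p = 0.00866). Between the doses, G3 lay below G2 by a log2 difference of −0.33 (SE 0.13, 95% interval −0.60 to −0.05), which limma did not call (adjusted p = 0.460, exact permutation p = 0.0390). The 33 permutation tests of the 11 bright genes gave an adjusted p of 0.0713 for Slc3a2 in G2 as the lowest and 0.0919 for Slc3a2 in G3. Both exposed groups were set against the same G1 pups, so their log2 fold changes share the control values.

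The adjusted p of Slc3a2 in G2 passed in 2 of 22 alternatives. These were a variance prior that followed mean expression (limma, adjusted p = 0.0410) and dim probes left out (limma, adjusted p = 0.0395). It did not pass in the other 20. Among those, limma gave an adjusted p of 0.0559 with the 3 groups fitted together and 0.103 with quantile normalization. With sex as covariate it was 0.135, and with replicate number as a block 0.209. Over the 3 groups together, the F-test of limma called Slc3a2 (adjusted p = 0.0336), the only member among the 42 probes called, which made up 0.186% of all probes. This call was lost when any of 9 pups was left out in turn, G1 replicate 1, 2 or 5, G2 replicate 1, 3, 4 or 6, or G3 replicate 2 or 3, with adjusted p-values of 0.0136 to 0.0762 over the 18 omissions. Erythroid markers were lower in the group in which Slc3a2 was highest. Of 7 measured, 7 were lower in G2 than in G1, 5 at an unadjusted p of 0.05 (Hba-a3, Ahsp, Hbb, Alas2 and Slc4a1, 71.4% against 5.59% of all probes lower at that level) and none past the adjusted p, with list means of 10.69 to 11.28 in G1, 10.38 to 10.85 in G2 and 10.62 to 10.94 in G3, and Alas2, Slc4a1 and Epb42 below 8.3. Their part in the result was not tested.

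At the higher dose, Slc3a2 lay further above the controls of the same sex in males than in females, a difference that did not pass. In males the mean was 10.65 in G1, 11.64 in G2 and 11.51 in G3, log2 differences of 0.99 and 0.86 from G1. In females it was 10.88, 11.60 and 11.07, log2 differences of 0.73 and 0.19. With 3 pups per sex, neither sex passed alone in limma (adjusted p = 0.687 for males and 0.960 for females in G2, 0.214 and 0.625 in G3). The interaction of sex and exposure had an unadjusted p of 0.0305 for Slc3a2 and did not pass (limma, adjusted p = 1), with 3.34% of all probes and 3.44% of bright probes below an unadjusted p of 0.05. Slc3a2 and the dim glutamine carrier Slc1a5 (unadjusted p = 0.00668, limma) were the only members at that level, and none passed the adjusted p, as against 0.00444% of all probes.

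**Figure D1:**
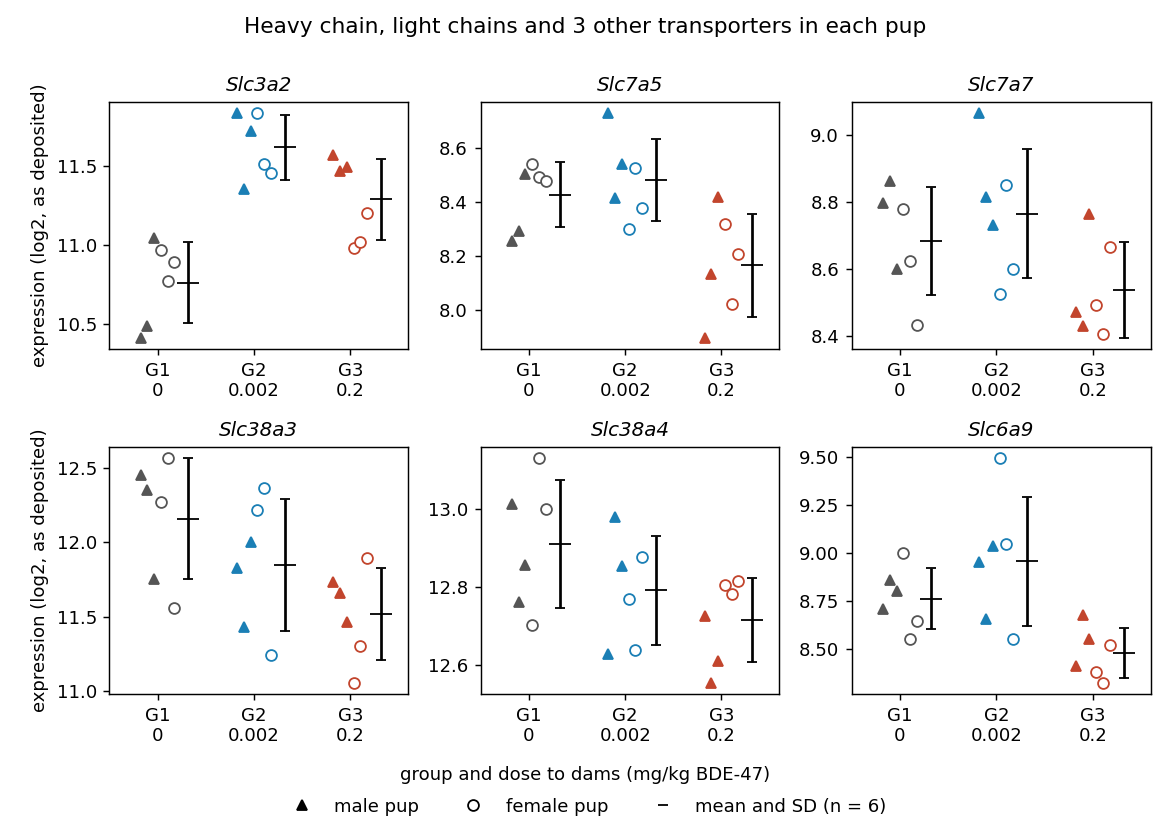
Log2 expression as deposited (vertical axes, a separate scale per gene) of Slc3a2, its light chains Slc7a5 and Slc7a7, and Slc38a3, Slc38a4 and Slc6a9 in each pup of G1, G2 and G3, with filled triangles for males, open circles for females and the mean with SD (n = 6) beside them. All 6 G2 pups lie above the 6 G1 pups for Slc3a2, and 4 of 6 G3 pups lie below all G1 pups for Slc7a5 and for Slc6a9.

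Neither bright light chain passed a test in an exposed group. Of the 6 light chains that pair with Slc3a2, only Slc7a5 and Slc7a7 reached 8.3. Slc7a5 (LAT1, probe ILMN_1365729), which exchanges leucine and other large neutral amino acids, read 8.26, 8.29, 8.50, 8.54, 8.49 and 8.48 in G1, 8.73, 8.41, 8.54, 8.3, 8.53 and 8.38 in G2, and 7.90, 8.13, 8.42, 8.32, 8.02 and 8.21 in G3. G2 overlapped with G1, 1 of its pups lying above every control pup and none below, while 4 of 6 G3 pups lay below every control pup. Slc7a5 had a log2 fold change of 0.05 (SE 0.07, limma, adjusted p = 0.842) in G2. In G3 it was −0.26 (SE 0.09, 95% interval −0.45 to −0.07, 1.2-fold lower), the sign opposite to that of Slc3a2, and it did not pass (limma, adjusted p = 0.145, exact permutation p = 0.0173, 0.0919 adjusted over the 33 tests). Between G3 and G2 the log2 difference was −0.32 (SE 0.09, limma, adjusted p = 0.363, exact permutation p = 0.0152). In G2 the males and females of Slc7a5 differed in sign, with log2 differences from G1 of 0.21 and −0.10.

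Slc7a7 (y+LAT1, probe ILMN_1358568), which exports basic amino acids such as arginine and lysine, read 8.80, 8.86, 8.60, 8.78, 8.62 and 8.43 in G1, 9.06, 8.82, 8.73, 8.52, 8.85 and 8.60 in G2, and 8.47, 8.43, 8.76, 8.49, 8.41 and 8.67 in G3. The 3 groups overlapped. Its log2 fold change was 0.08 in G2 (SE 0.10, limma, adjusted p = 0.805) and −0.14 in G3 (SE 0.08, limma, adjusted p = 0.376). The log2 difference of G3 from G2 was −0.23 (SE 0.09, limma, adjusted p = 0.480, exact permutation p = 0.0455). The 4 dim light chains, Slc7a6, Slc7a8, Slc7a10 and the cystine carrier Slc7a11, had means of 7.73 to 8.06 and log2 fold changes of −0.03 to −0.02 in G2 and −0.06 to −0.0035 in G3. The other heavy chain Slc3a1 and its partner Slc7a9, known for cystine uptake in kidney, had means of 7.83 to 7.96 and log2 fold changes of 0.02 to 0.03 in G2 and 0.02 to 0.09 in G3. Values this close to the lower end of the scale understate differences.

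No member passed the adjusted p of 0.05 in G2 against G1, where limma called 0.0133% of all probes. The same was found in G3 against G1 (0.0799% of all probes called) and in G3 against G2 (0.0178%), and none met it together with the 2-fold limit of the methods (0.00888%, 0.00444% and 0% of all probes). The lowest adjusted p-values among the members were 0.0975, 0.0960 and 0.279. At an unadjusted p of 0.05, 3 of the 52 genes differed in G2 (5.77%, against 9.98% of all probes), 8 in G3 (15.4%, against 18.6%) and 8 between G3 and G2 (15.4%, against 9.47%). Among the 11 bright members, Slc3a2 alone lay below that level in G2, and was higher, which is 9.09% against 18.7% of the bright probes (8.1% higher and 10.6% lower). In G3 they were 5 (45.5%, against 34.4% of the bright probes, 16.2% higher and 18.2% lower), with Slc3a2 higher and Slc7a5, Slc38a3, Slc38a4 and Slc6a9 lower. Between G3 and G2 they were 4 (36.4%, against 15% of the bright probes, 6.77% higher and 8.18% lower), Slc3a2, Slc7a5, Slc7a7 and Slc6a9, all lower in G3. The median log2 fold change of the 11 was 0.03 in G2, −0.08 in G3 and −0.08 between G3 and G2, beside −0.01, −0.02 and 0.00 over the bright probes. No member separated G3 from G2 without overlap, as did 0.608% of all probes and 0.968% of the bright probes. The count between G3 and G2 was 2 without G3 replicate 4 and 2 without G3 replicate 5.

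**Figure D2:**
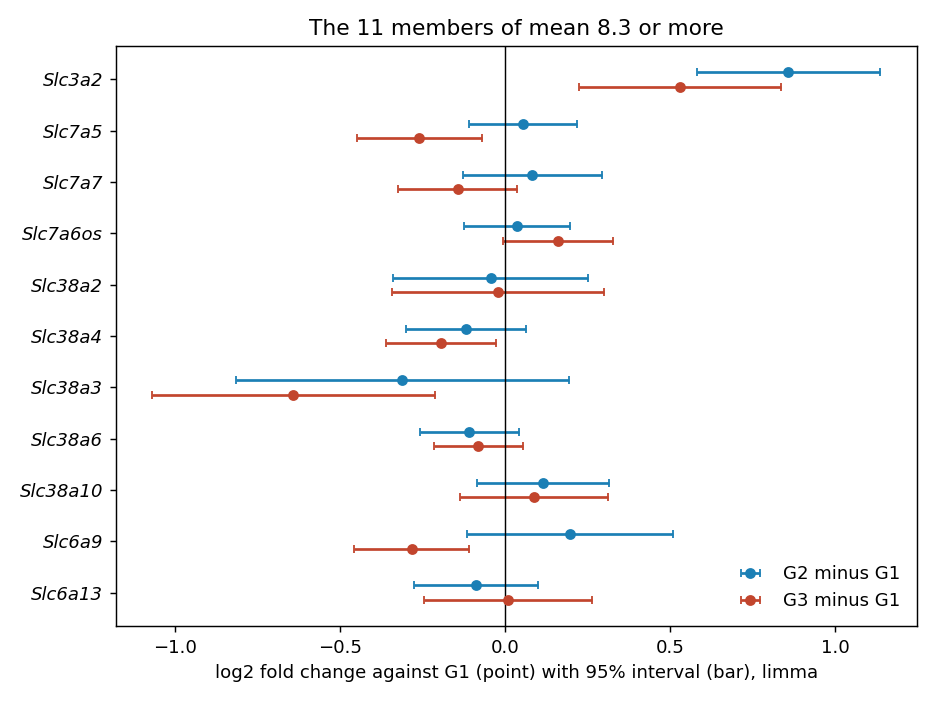
Log2 fold change against G1 (horizontal axis, points) with its 95% interval (bars) from limma for the 11 members of mean 8.3 or more, in G2 (blue) and G3 (red). The intervals of Slc3a2, 0.58 to 1.14 in G2 and 0.22 to 0.83 in G3, lie above 0, and those of Slc7a5, Slc38a3, Slc38a4 and Slc6a9 lie below 0 in G3 only.

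Of the sodium-coupled Slc38 carriers, the glutamine carrier Slc38a3 (SNAT3, probe ILMN_1358848) had the lowest log2 fold change among the 11 in both groups. It read 12.46, 12.35, 11.76, 12.27, 12.57 and 11.56 in G1, 11.83, 11.43, 12.00, 12.22, 12.37 and 11.24 in G2, and 11.73, 11.66, 11.47, 11.06, 11.30 and 11.90 in G3. The groups overlapped, and 3 of 6 G3 pups lay below every control pup. The log2 fold change was −0.31 in G2 (SE 0.23, limma, adjusted p = 0.659) and −0.64 in G3 (SE 0.20, 95% interval −1.07 to −0.21, 1.56-fold lower, limma, adjusted p = 0.121, exact permutation p = 0.0195). Without G1 replicate 6, the control pup with the lowest value, it was −0.76 in G3 and passed (limma, adjusted p = 0.0323). In the liver Slc38a3 is known from pericentral hepatocytes. Of 6 pericentral markers measured, 4 were higher and 2 lower in G2 than in G1, whereas 5 were lower in G3. At an unadjusted p of 0.05 there was 1 in G3, Axin2 (16.7%, against 18.6% of all probes and 34.4% of the bright probes). List means were 11.10 to 11.29 in G1, 11.12 to 11.30 in G2 and 10.84 to 11.18 in G3. Lgr5 and Axin2 lay below 8.3. The part of these markers in the Slc38a3 values was not tested.

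Slc38a4 (SNAT4, probe ILMN_1360427), a carrier of small neutral amino acids typical of hepatocytes, read 13.01, 12.76, 12.86, 12.70, 13.13 and 13.00 in G1, 12.63, 12.98, 12.85, 12.77, 12.64 and 12.88 in G2, and 12.72, 12.55, 12.61, 12.80, 12.78 and 12.81 in G3. The groups overlapped, with 2 pups of each exposed group below every control pup. Its log2 fold change was −0.12 in G2 (SE 0.08, limma, adjusted p = 0.640) and −0.20 in G3 (SE 0.08, 95% interval −0.36 to −0.03, limma, adjusted p = 0.199, exact permutation p = 0.0455). Slc38a2 (SNAT2), a carrier of small neutral amino acids that is known to be induced when cultured cells lack amino acids, overlapped between the groups. It ranged from 11.55 to 12.10 in G1, 11.43 to 12.07 in G2 and 11.45 to 12.28 in G3. The log2 fold changes of Slc38a2 were −0.04 (SE 0.13, 95% interval −0.34 to 0.25) in G2 and −0.02 (SE 0.15, 95% interval −0.34 to 0.30) in G3, and both turned their sign when single pups were left out. The highest Slc38a2 value of all 18 pups, 12.28, was that of G3 replicate 2, the pup with muscle transcripts. The next values were 12.10 in G1 replicate 2 and 12.07 in G2 replicate 3, and a link to muscle transcripts was not tested.

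Slc38a6 ranged from 8.38 to 8.73 in G1, 8.32 to 8.56 in G2 and 8.42 to 8.52 in G3, with a log2 fold change of −0.11 in G2 (SE 0.07) and −0.08 in G3 (SE 0.06). Slc38a10 ranged from 8.35 to 8.83, 8.56 to 8.95 and 8.50 to 8.89, with log2 fold changes of 0.11 (SE 0.09) and 0.09 (SE 0.10). Neither gene reached an unadjusted p of 0.05 in any of the 3 comparisons. In G3 the males of Slc38a10 lay above the G1 males by 0.31 and the females differed from the G1 females by −0.14 on the log2 scale.

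The glycine transporter Slc6a9 (GlyT1, probe ILMN_1357015) had its highest mean in G2 and its lowest in G3. It read 8.71, 8.86, 8.80, 9.0, 8.55 and 8.64 in G1, 8.95, 8.65, 9.04, 9.50, 9.05 and 8.55 in G2, and 8.41, 8.68, 8.55, 8.38, 8.32 and 8.52 in G3. In G2, 3 pups lay above every control pup, and in G3, 4 pups lay below every control pup. The log2 fold change was 0.20 in G2 (SE 0.14, limma, adjusted p = 0.656) and −0.28 in G3 (SE 0.08, 95% interval −0.46 to −0.11, limma, adjusted p = 0.105, exact permutation p = 0.0130). G3 lay below G2 by −0.48 on the log2 scale (SE 0.14, 95% interval −0.78 to −0.18, 1.39-fold lower), the lowest of the 11 genes in that comparison, and this did not pass either (limma, adjusted p = 0.352, exact permutation p = 0.0108, 0.0919 adjusted over the 33 tests).

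Slc6a13 (GAT2), which takes up GABA and taurine and is known from periportal hepatocytes in mice, ranged from 11.23 to 11.56 in G1, 11.08 to 11.55 in G2 and 11.09 to 11.76 in G3. The groups overlapped, and the highest value was again that of G3 replicate 2, where a link to muscle transcripts was not tested either. Its log2 fold changes were −0.09 (SE 0.09, limma, adjusted p = 0.752) and 0.01 (SE 0.12, limma, adjusted p = 0.981), the latter turning its sign when single pups were left out. Slc7a6os ranged from 8.94 to 9.28, 8.97 to 9.28 and 9.11 to 9.45, with log2 fold changes of 0.03 in G2 and 0.16 in G3 (SE 0.08, limma, adjusted p = 0.294). Leaving it out changed none of the 3 counts of bright members at an unadjusted p of 0.05.

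**Figure D3:**
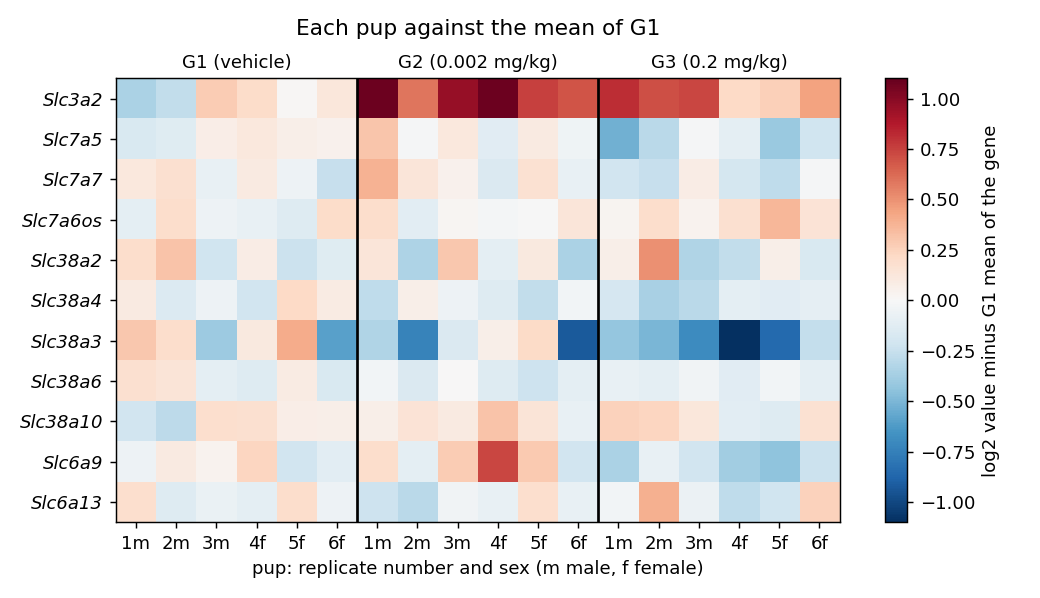
Log2 value of each pup minus the G1 mean of the same gene (colour bar, red above and blue below) for the 11 bright members (rows) in the 18 pups (columns, with replicate number and m or f for the sex). The Slc3a2 row is red in all G2 pups and in all G3 pups, most weakly in G3 females, whereas in the Slc38a3 row the 6 G3 pups are blue.

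The 41 dim members had log2 fold changes of −0.11 to 0.14 in G2, −0.11 to 0.12 in G3 and −0.13 to 0.10 between G3 and G2, and 2, 3 and 4 of them lay below an unadjusted p of 0.05 (4.88%, 7.32% and 9.76%). These were Slc6a8 and Slc38a5 in G2, Slc43a2, Slc6a2 and Slc7a13 in G3, and Slc38a5, Slc36a3, Slc6a2 and Slc6a20a between G3 and G2, named after their values were seen. The shares over all probes below 8.3 were 6.74%, 12.7% and 7.43%. All 6 glutamate and neutral amino acid carriers of the Slc1 family, all 3 proton-coupled carriers of the Slc36 family and all 3 carriers of the Slc43 family were dim. So were 11 of 13 members of Slc6, 12 of 15 of Slc7, with Slc7a6os counted among the 15, and 5 of 10 of Slc38. Slc38a5 (SNAT5), a glutamine carrier with a mean of 7.86, had the lowest unadjusted p of the dim members. It ranged from 7.81 to 7.93 in G1, 7.77 to 7.87 in G2 and 7.84 to 7.97 in G3, and G3 lay above G2 by 0.10 on the log2 scale (SE 0.02, limma, adjusted p = 0.279). Slc7a13 was the only dim member whose G3 pups did not overlap with G1, with 7.67 to 7.71 against 7.71 to 7.89 (log2 fold change −0.07, SE 0.03, limma, adjusted p = 0.221), and 1.95% of all probes and 3.51% of the bright probes did not overlap in that comparison.

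Over the 3 groups, 7 of the 52 members and 4 of the 11 bright members had an unadjusted p of 0.05 or less in the F-test, as had 17% of all probes and 32.1% of the bright probes. Between females and males with the groups pooled, 0 members passed the adjusted p in limma (0.00444% of all probes did), 2 (Slc7a6 and Slc1a4, both dim) had an unadjusted p of 0.05 or less and none of the bright members did (3.95% of all probes and 4.33% of the bright probes). Among the bright members, the difference of females from males was −0.18 for Slc38a2, −0.13 for Slc7a7 and −0.08 for Slc3a2, with the other 8 between −0.09 and 0.06 on the log2 scale.

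Genes of the amino acid response, in which Atf4 acts when amino acids are short, were listed apart from the transporters. The list held Atf4 itself and the kinase genes Eif2ak3 and Eif2ak4 beside genes that Atf4 switches on. Of the 28 genes, 25 were measured, 15 of them at 8.3 or more. In G2, 19 of 25 lay above G1 with a median log2 fold change of 0.12, and 6 were higher and 0 lower at an unadjusted p of 0.05 (24%, against 9.98% of all probes, 4.4% higher and 5.59% lower). In G3 the median was 0.00, with Atf5 and Cth, 2 genes, higher and 1 gene, Gadd45a, lower (12%, against 18.6%, 8.59% higher and 9.98% lower), and between G3 and G2 it was −0.08, with 0 higher and 5 lower, Atf4, Atf3, Cebpb, Gadd45a and Ppp1r15a (20%, against 9.47%, 4.18% higher and 5.29% lower). Of the bright probes, 18.7% differed at that level in G2, 34.4% in G3 and 15% between them. No gene of the list passed the adjusted p (lowest adjusted p = 0.139 in G2, 0.110 in G3 and 0.279 between them, limma). The list mean of a pup ran from 9.14 to 9.36 in G1, 9.25 to 9.50 in G2 and 9.13 to 9.53 in G3.

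Atf5, a transcription factor of this response, had a log2 fold change of 0.54 in G2 (SE 0.09, limma, adjusted p = 0.139) and 0.31 in G3 (SE 0.11, limma, adjusted p = 0.170). Cth, which makes cysteine from cystathionine, had 0.76 in G2 (SE 0.20, limma, adjusted p = 0.419) and 0.80 in G3 (SE 0.23, limma, adjusted p = 0.110). Eif4ebp1, a brake on translation that mTORC1 releases, had log2 fold changes of 0.34 and 0.17, and the pseudokinase Trib3 had 0.37 and 0.14. Atf4 itself, which the naming rule did not take, had 0.12 in G2 and −0.24 in G3. Asns, the asparagine synthetase often read as a sign of this response, had 0.14 and 0.03. Trib3 and Asns lay near the lower end of the scale, with means of 8.16 and 8.02, where values understate differences. The members of the list therefore did not share a direction in G3.

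**Figure D4:**
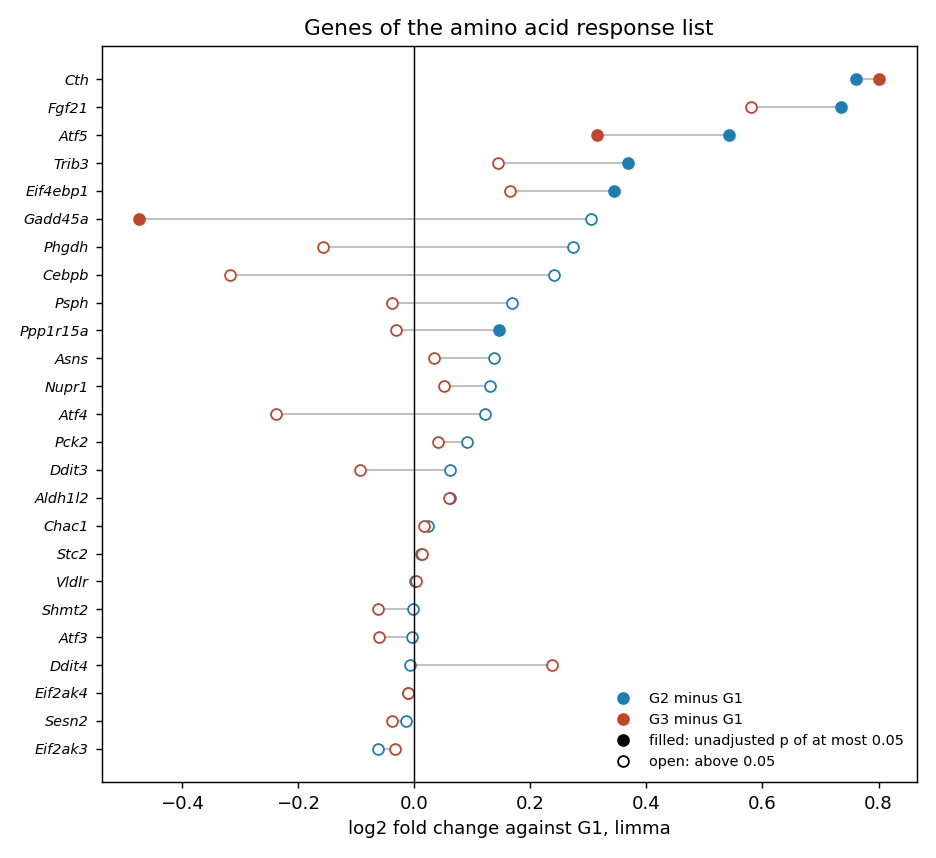
Log2 fold change against G1 (horizontal axis, limma) of the 25 measured genes of the amino acid response list (rows, in the order of G2), in G2 (blue) and G3 (red), filled where the unadjusted p is at most 0.05. In G2, 19 of 25 points lie above 0, and in G3 13 do, with Gadd45a the lowest at −0.47.

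Of 20 cytosolic aminoacyl-tRNA synthetases, which load amino acids onto tRNA, 17 were measured, 15 of them at 8.3 or more. At an unadjusted p of 0.05, 4 were higher and 0 lower in G2 (23.5%), and 3 were higher and 0 lower in G3 (17.6%). Between G3 and G2, 0 were higher and 2 lower (11.8%). The shares were 9.98%, 18.6% and 9.47% of all probes, and 18.7%, 34.4% and 15% of the bright probes. Medians were 0.06, 0.01 and −0.07. The alanyl synthetase Aars1 had log2 fold changes of 0.42 in G2 (limma, adjusted p = 0.419) and 0.57 in G3 (SE 0.11, limma, adjusted p = 0.0584), and did not pass. Those of Qars1 were 0.16 and 0.26, of Iars1 0.30 and 0.23, and of Gars1 0.30 and −0.03. The fourth synthetase in G2 was Yars1, and those lower in G3 than in G2 were Gars1 and Eprs1. Of 28 other amino acid transporters and accessory subunits, 20 were measured, with 2 higher and 4 lower in G2 (30%), 2 higher and 2 lower in G3 (20%), 1 higher and 1 lower between G3 and G2 (10%), beside the same shares of all probes (9.98%, 18.6% and 9.47%), medians of 0.01, 0.01 and 0.00, and none past the adjusted p. The monocarboxylate carrier Slc16a1 had log2 fold changes of 0.46 and 0.59, and Cltrn, Slc15a1 and Ctns of that list were below 8.3.

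Markers of the other cells that whole liver can hold were listed too. At an unadjusted p of 0.05 against G1, 9.98% of all probes differed in G2 and 18.6% in G3. Of the bright probes, 18.7% and 34.4% did. None of 4 cholangiocyte, 6 stellate, 2 endothelial and 7 exocrine pancreas markers differed at that level in G2 or G3. Of 6 markers of Kupffer cells and leukocytes, 1 (16.7%), Ptprc, was higher in each group. Ptprc had log2 fold changes of 0.08 and 0.11 and a mean of 7.91, near the lower end of the scale. Of 8 periportal markers, all bright, Pck1 was higher and Ass1 lower in G2 (25%). In G3, Cps1 was higher and Sds lower (25%). All 7 skeletal muscle markers had means below 8.3 and all were higher in G3 than in G1, none at an unadjusted p of 0.05, with list means of 7.77 to 7.80 in G1 and up to 10.94 in G3 replicate 2. Without that pup the log2 fold change of Slc3a2 in G3 was 0.49 (limma, adjusted p = 0.146).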

How the data were processed

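Liver RNA of each pup was hybridized to 1 array of the Illumina RatRef-12 BeadChip type. The labels do not say which pups shared a chip. The values are log2 expression as deposited, made by the authors from the scanned intensities with lumi, run within FlexArray 1.2. Which lumi version and normalization they chose is not given in the sources used here, and the table holds neither detection values nor counts. Of the probes, 13793 carry 1 symbol in the platform annotation, 8730 carry several or none, and 13752 of the symbols' probes and all 52 members were found in RefSeq. For the 2 members with several probes the brightest stood for the gene.

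Groups came from the sample titles. Each pair of groups was compared on its 12 arrays with lmFit and eBayes (limma 3.58.1, R 4.3.3, statmod 1.5.0 for array weights), two-sided, sexes pooled, Benjamini-Hochberg over all 22523 probes, adjusted p of at most 0.05. The F-test, the test of sex and the interaction used 18 arrays. The code was tested on simulated data. Single genes were tested by exact permutation of 6 pups against 6.

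The members, the 5 gene lists and the 10 marker lists were chosen with earlier results of these data known. Named were every member of mean 8.3 or more, with all pups' values for Slc3a2, its bright light chains and bright members with an unadjusted p of at most 0.05, dim members with an unadjusted p of at most 0.01, and up to 4 genes of smallest p against G1 per list. Other list genes, markers and dim members named fall outside this rule and were chosen after their values were seen. Alternatives were a joint fit, a variance prior by mean expression, dim probes left out, quantile normalization, median centring, sex as covariate, replicate block, array weights, 1 sex, the mean of a gene's probes, limits of 8 and 9, a 2-fold limit, each pup left out and, added after seeing the data, Slc7a6os left out.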

Additional observations from a re-analysis of the deposited data

How the results depend on the processing

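Of 1011 values under alternatives, 959 kept their direction and side of the threshold or stayed within 1.5 times the main count, 18 counts moved, 3 values passed that had not, and 31 log2 differences near 0, none of them past the adjusted p, turned their sign. Slc3a2 in G2 kept a log2 fold change of 0.86 with a variance prior that depended on brightness and without dim probes, and passed in both, so that the count of members past the adjusted p was 1 in both. The cause was not tested. The count of bright members at an unadjusted p of 0.05 was 2 in G2 with a limit of 8. In G3 it was 3 with a limit of 9 and 3 in females only, and between G3 and G2 it was 1 with a limit of 9. A limit changes which genes are counted, and females only leaves 3 pups per group.

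With each pup left out in turn, the count of members past the adjusted p was 0 to 0 in G2, 0 to 1 in G3 and 0 to 0 between G3 and G2. That of bright members was 1 to 1, 4 to 6 and 2 to 5, and that of the F-test 0 to 1. The log2 fold change of Slc3a2 was 0.79 to 0.91 in G2 (adjusted p = 0.0891 to 0.300, limma), 0.46 to 0.59 in G3 (adjusted p = 0.0566 to 0.182) and −0.39 to −0.27 between them. Signs turned within these ranges for Slc38a2 (−0.11 to 0.019 in G2, −0.13 to 0.040 in G3 and −0.083 to 0.089 between them), Slc6a13 in G3 (−0.069 to 0.066) and Slc38a10 between G3 and G2 (−0.068 to 0.017).

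Array weights turned Slc38a2 to 0.0037 in G2 and −0.0074 between G3 and G2, and Slc6a13 to −0.0061 in G3. In females only, the log2 difference turned to −0.10 for Slc7a5 in G2, to −0.093 for Slc6a13 and −0.14 for Slc38a10 in G3, and, between G3 and G2, to 0.038 for Slc38a4, −0.0089 for Slc38a2 and −0.089 for Slc6a13. In males only, it turned to 0.096 for Slc38a10 and −0.012 for Slc38a6 between G3 and G2. The cause was not tested.

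Replicate numbers did not pair the pups. Deviations of pups with the same number correlated at −0.16 to 0.22 in G2 and G1 (1 of 6 pairs over 0.1), −0.11 to 0.08 in G3 and G1 (0 of 6) and −0.33 to 0.17 in G3 and G2 (1 of 6), and at most 2 of 12 arrays correlated best with their own number. With replicate number as a block, Slc3a2 had the same log2 fold changes with adjusted p = 0.209, 0.216 and 0.551 (limma), and no count moved by over 1.5 times. Values near the lower end of the scale limit what the 41 dim members can show.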

Other observations

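Genes of glutathione synthesis and the gamma-glutamyl cycle, which use cysteine, glutamate and glycine, were listed beside the transporters, and 11 of 14 were measured. Of the 11, 8 had means of 8.3 or more. In G2, 4 were higher and 1 lower than in G1 at an unadjusted p of 0.05, with a median log2 fold change of 0.15. That is 45.5%, against 9.98% of all probes and 18.7% of the bright probes. In G3, 3 were higher and 1 lower, with a median of 0.07. That is 36.4%, against 18.6% of all probes and 34.4% of the bright probes. Between G3 and G2, 0 were higher and 0 lower, against 9.47% of all probes. None passed the adjusted p (lowest adjusted p = 0.419 in G2, 0.0815 in G3 and 0.558 between them, limma). Gclc, the catalytic subunit of the first enzyme of glutathione synthesis, had log2 fold changes of 0.56 in G2 (SE 0.24, limma, adjusted p = 0.492) and 0.71 in G3 (SE 0.24, limma, adjusted p = 0.153). Ggct, which cleaves gamma-glutamyl amino acids, had 0.24 and 0.29, and Ggt7 had −0.05 and −0.08 near the lower end of the scale. Cth, described with the amino acid response, is also of this list. The list mean of a pup ran from 10.06 to 10.39 in G1, 10.31 to 10.58 in G2 and 10.34 to 10.54 in G3. Both exposed groups overlapped with G1, and their lowest pups lay above the G1 median of 10.20.

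Of 34 genes through which mTORC1 senses amino acids, 27 were measured, 16 of them at 8.3 or more. At an unadjusted p of 0.05, 2 were higher and 2 lower in G2 (14.8%), and 2 were higher and 3 lower in G3 (18.5%). The shares were 9.98% and 18.6% of all probes, and 18.7% and 34.4% of the bright probes. Medians were −0.01 in both groups. None passed the adjusted p (lowest adjusted p = 0.437 and 0.168, limma). The Rag GTPase gene Rraga had log2 fold changes of 0.28 and 0.36, Lamtor2 of the lysosomal scaffold had −0.41 and −0.34, and Tsc1, near the lower end of the scale, had −0.05 and −0.02.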
